A study of Mus musculus with 12 samples.

Results

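The genes of MHC class II antigen presentation were followed on 9 probe sets of an Affymetrix mouse genome array, which stand for 6 genes, out of 45101 probe sets in the table. They were chosen by gene: the class II chains H2-Aa (1435290_X_AT and 1438858_X_AT), H2-Ab1 (1450648_S_AT and 1451721_A_AT) and H2-Eb1 (1417025_AT), the invariant chain Cd74 (1425519_A_AT), the loading factor H2-DMa (1422527_AT) and the transactivator Ciita (1421210_AT and 1421211_A_AT). No measured value entered the choice, but it was made with earlier results of these arrays known. The gene names of the probe sets came with the list and were not checked against an annotation of the array here. In Affymetrix names, the letter X before the ending AT marks probes that can also bind other sequences, S marks probes shared by several transcripts, and A marks probes shared by transcripts of 1 gene, so the H2-Aa values in particular may hold signal from related genes.

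Signals came from 12 tissue samples of male FVB mice aged 7 to 11 months, with 1 array each. Of these, 4 were lung of non-transgenic mice, and 4 were adjacent normal lung and 4 lung adenocarcinoma of mice that carried wild-type human cyclin E, a driver of the cell cycle, under the human surfactant protein C promoter. That promoter acts in the distal lung epithelium, and the non-transgenic mice carried no transgene. Tissue was picked by its gross appearance, and the paper describes the adjacent lung as histopathologically normal. Each RNA came from a mixture of tumor or lung cells with blood and immune cells. In such a mixture, fewer cells of a type and less RNA per cell cannot be told apart. The tissue labels were not checked against cell type markers here, since no other probe set was named. The p-values below set differences against the spread between these 12 samples only. The main fit took the samples as independent, although tumor and adjacent normal lung of 1 number may come from 1 mouse.

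Class II molecules are pairs of an alpha and a beta chain that carry peptides from the endosome to the cell surface, where CD4+ T cells read them. H2-Aa and H2-Ab1 encode the chains of I-A, and H2-Eb1 encodes the beta chain of I-E. The invariant chain Cd74 fills the groove of new class II pairs and guides them to the endosome, and H2-DMa encodes a chain of the H2-DM complex, which exchanges the last invariant chain fragment for peptide. Ciita is the coactivator that switches on these genes together through the factors bound at the X and Y boxes of their promoters. In lung, dendritic cells, B cells and macrophages carry class II, and alveolar type II cells, in which the surfactant protein C promoter is active, carry it too.

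The promoters of the class II chains are shown because they hold the boxes through which Ciita acts. RefSeq windows of the reference genome (GRCm38.p6, from C57BL/6J and not from the FVB strain of these mice) were given for 3 of the 6 genes, H2-Aa, H2-Eb1 and H2-DMa, from 250 bases before to 50 bases after the start of transcription. The letters GCAAC of the X box followed after 15 to 35 bases by TGATTGG of the Y box were searched on both strands. The windows of H2-Aa and H2-Eb1 held the pair, against 0.204% of 32851 windows, or 67 windows. Neither of the 2 windows of H2-DMa held the pair or the letters of the Y box. The pair is drawn here in capitals, on the strand of the gene, at chr17:34287847-34287924 (minus strand) for H2-Aa and at chr17:34305756-34305832 (plus strand) for H2-Eb1.
H2-Aa: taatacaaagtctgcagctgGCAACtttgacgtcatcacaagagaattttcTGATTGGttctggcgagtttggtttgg
H2-Eb1: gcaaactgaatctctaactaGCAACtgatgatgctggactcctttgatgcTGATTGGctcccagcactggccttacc

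The gap between both boxes was 26 bases in H2-Aa and 25 bases in H2-Eb1, and the X box began 81 and 91 bases before the start of transcription. A Y box alone was found in 7.82% of all windows. H2-Ab1, H2-Aa and H2-Eb1 are consecutive protein-coding genes on chromosome 17, which also holds H2-DMa. A match to these letters is a description of the sequence and was not measured on the arrays.

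Both tumor 2 and adjacent normal lung 3 stood apart from the rest of their groups, so results that rest on them are given with and without them. Tumor 2 was the lowest tumor in 9 of the 9 class II probe sets, and in 40.2% of the 23538 probe sets tested. On adjacent normal lung 3 the median signal of the array was 4.38, against 4.10 to 4.21 on the other 11 arrays, and the control for the middle of the Gapdh transcript read 9.01, against 10.68 to 12.36 elsewhere. The controls for the 3' and 5' ends of Gapdh read 10.87 and 10.65 on this array. In adjacent normal lungs 1, 2 and 4 they read 10.90 to 11.27 and 10.57 to 11.05. A probe set was tested if it exceeded 4.18, the median of the whole table, on at least 4 arrays. All 9 class II probe sets passed, and 8 of them exceeded that level on all 12 arrays. The exception was Ciita 1421211_A_AT, which exceeded it on all 8 lungs and 3 tumors, so no probe set passed through the tumors alone.

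**Figure D1:**
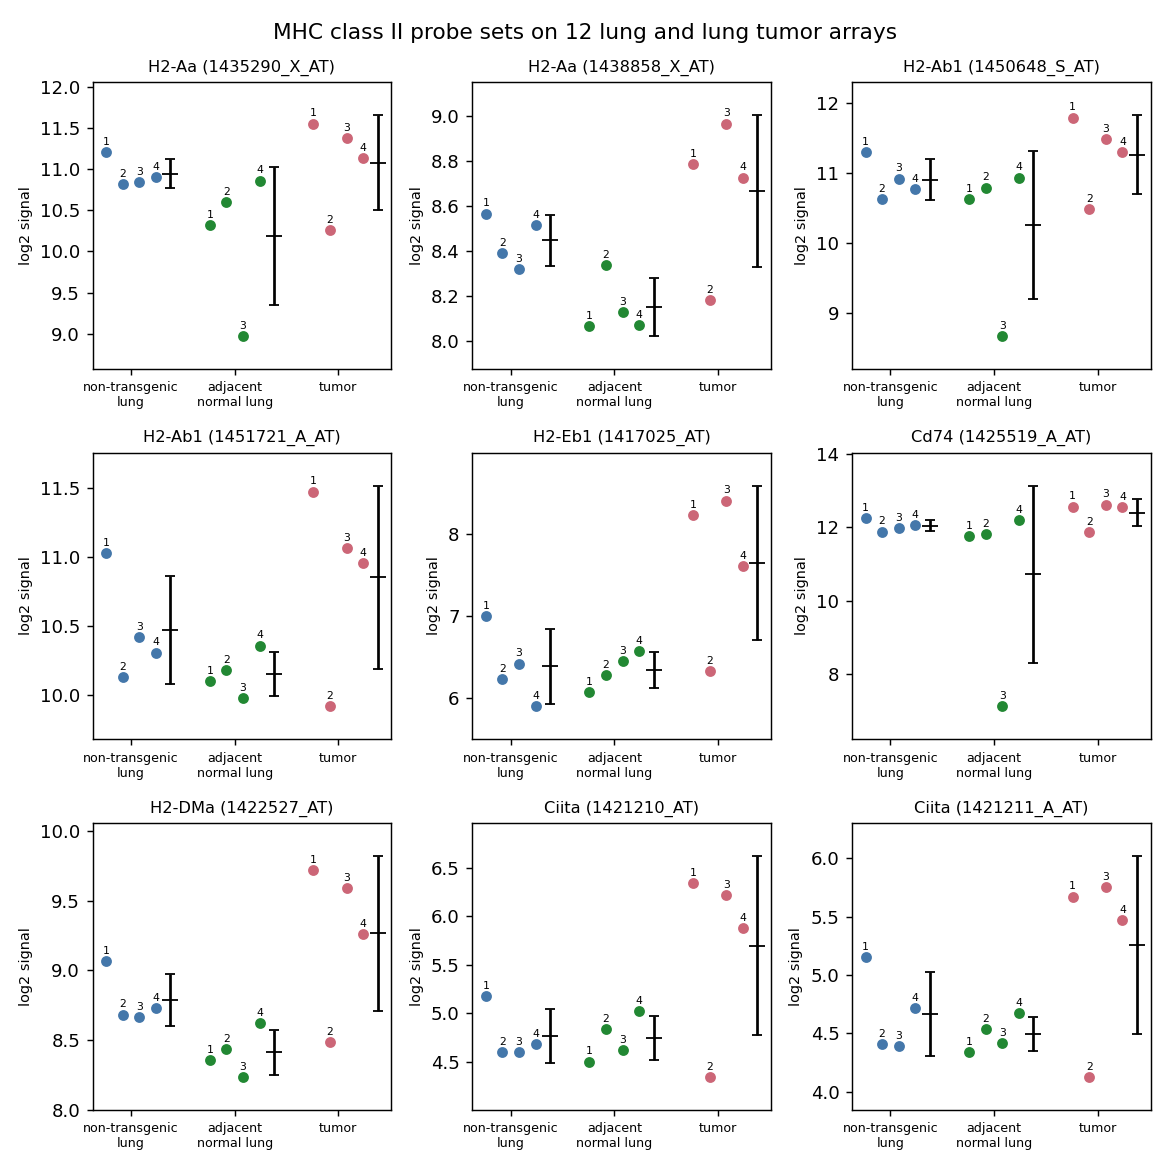
Log2 signal of the 9 class II probe sets on each array (vertical axes, 1 panel per probe set), by group, with each point numbered by replicate and the mean ± SD of the 4 arrays drawn in black. Tumors 1, 3 and 4 lay above all 4 adjacent normal lungs in every panel, as in 25.7% of all probe sets tested. Tumor 2 was the lowest tumor in every panel, as in 40.2% of all. Adjacent normal lung 3 was far below its group for Cd74 and for the first probe sets of H2-Aa and H2-Ab1.

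Among the class II chains, H2-Eb1 showed the largest difference between tumor and lung that passed the test. Its log2 signals were 6.99, 6.22, 6.42 and 5.89 in non-transgenic lungs 1 to 4, 6.07, 6.27, 6.45 and 6.57 in adjacent normal lungs 1 to 4, and 8.24, 6.33, 8.41 and 7.61 in tumors 1 to 4. Tumors 1, 3 and 4 exceeded all 8 lungs, while tumor 2 lay among them, with 4 lungs above it. The mean was 7.65 ± 0.95 in tumors, 6.34 ± 0.22 in adjacent normal lung and 6.38 ± 0.46 in non-transgenic lung (SD, n = 4 each). H2-Eb1 rose in tumors by 1.31 on the log2 scale over adjacent normal lung (95% interval 0.46 to 2.16, limma adjusted p = 0.027) and by 1.27 over non-transgenic lung (0.41 to 2.12, limma adjusted p = 0.028). Without tumor 2 these differences were 1.75 and 1.71. The call over adjacent normal lung was lost without tumor 1, 3 or 4 (limma adjusted p = 0.078, 0.082 and 0.057), without adjacent normal lung 1 or 2 (0.072 and 0.060), with only the 8 arrays compared (0.060) and with the unequal-variance test (0.199). The call over non-transgenic lung was lost without tumor 1, 3 or 4 (limma adjusted p = 0.081, 0.085 and 0.057), without non-transgenic lung 2, 3 or 4 (0.066, 0.056 and 0.080), with only the 8 arrays compared (0.065) and with the unequal-variance test (0.171).

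H2-Aa was read by 2 probe sets that gave the same order of groups. On 1438858_X_AT the log2 signals were 8.57, 8.39, 8.32 and 8.51 in non-transgenic lung, 8.06, 8.34, 8.13 and 8.07 in adjacent normal lung, and 8.78, 8.18, 8.96 and 8.72 in tumors. Here too tumors 1, 3 and 4 were above all 8 lungs, and tumor 2 was below all 4 non-transgenic lungs and within the adjacent ones. The rise in tumors over adjacent normal lung was 0.51 on the log2 scale (95% interval 0.16 to 0.87, limma adjusted p = 0.034). With the replicate number added to the fit as a block, this call was lost (limma adjusted p = 0.063), and the calls of H2-Eb1 and H2-DMa were kept. That block also joined the non-transgenic lung of the same number, which came from another mouse. With tumor and adjacent normal lung of 1 number taken as 1 mouse, in a random block, the call of 1438858_X_AT was kept (limma adjusted p = 0.030). The call was lost without tumor 1, 3 or 4 and without adjacent normal lung 1, 3 or 4 (limma adjusted p = 0.057 to 0.103). It was also lost with quantile normalization again (0.065), with only the 8 arrays compared (0.085) and with the unequal-variance test (0.174). Over all 22 alternatives, other tests included, its adjusted p ranged from 0.000906 to 0.174.

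The other H2-Aa probe set, 1435290_X_AT, had log2 signals of 11.20, 10.82, 10.84 and 10.91 in non-transgenic lung, 10.32, 10.60, 8.98 and 10.86 in adjacent normal lung, and 11.55, 10.26, 11.37 and 11.13 in tumors. Adjacent normal lung 3 was the lowest array by over 1 log2 unit, non-transgenic lung 1 lay above tumor 4, and tumor 2 was below all lungs but adjacent normal lung 3. The difference between tumor and adjacent normal lung was 0.89 (95% interval 0.07 to 1.71, limma adjusted p = 0.095) and did not pass the test. It was 0.49 without adjacent normal lung 3.

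H2-Ab1, the partner chain of H2-Aa, gave 11.30, 10.63, 10.92 and 10.78 in non-transgenic lung, 10.63, 10.79, 8.67 and 10.93 in adjacent normal lung, and 11.79, 10.48, 11.49 and 11.30 in tumors on 1450648_S_AT (log2 signals). Its second probe set, 1451721_A_AT, gave 11.03, 10.13, 10.42 and 10.31, then 10.10, 10.18, 9.98 and 10.36, and then 11.47, 9.92, 11.06 and 10.96 in the same order. On both, tumor 1 and tumor 3 were above all 8 lungs, tumor 4 was at or just below non-transgenic lung 1, and tumor 2 was below every non-transgenic lung. The differences between tumor and adjacent normal lung were 1.01 and 0.70 on the log2 scale, and neither passed the test (limma adjusted p = 0.109 and 0.092). Without adjacent normal lung 3 they were 0.48 and 0.64.

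Cd74 was bright on all arrays but 1. Its log2 signals were 12.26, 11.88, 11.98 and 12.07 in non-transgenic lung, 11.76, 11.80, 7.12 and 12.20 in adjacent normal lung, and 12.56, 11.86, 12.62 and 12.55 in tumors. Tumors 1, 3 and 4 were above all 8 lungs by a small margin, tumor 2 was among the lungs, and adjacent normal lung 3 was more than 4 log2 units below each other array. That array set the size of the difference between tumor and adjacent normal lung, which was 1.68 with it (95% interval -0.21 to 3.57, limma adjusted p = 0.166) and 0.48 without it (0.03 to 0.92, limma adjusted p = 0.0995). Over all 22 alternatives the adjusted p of Cd74 ranged from 0.00361 to 0.423.

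H2-DMa, of the peptide exchange complex, had log2 signals of 9.06, 8.68, 8.67 and 8.73 in non-transgenic lung, 8.36, 8.44, 8.24 and 8.62 in adjacent normal lung, and 9.72, 8.49, 9.59 and 9.26 in tumors. Tumors 1, 3 and 4 were above all 8 lungs, and tumor 2 was below all 4 non-transgenic lungs but above 3 of the adjacent ones. The mean was 9.26 ± 0.55 in tumors, 8.41 ± 0.16 in adjacent normal lung and 8.78 ± 0.19 in non-transgenic lung (SD, n = 4 each). H2-DMa rose in tumors by 0.85 on the log2 scale over adjacent normal lung (95% interval 0.34 to 1.36, limma adjusted p = 0.019), the smallest adjusted p among the 9 probe sets with all 12 arrays. This call was lost without tumor 1 or tumor 3 (limma adjusted p = 0.055 and 0.059), with only the 8 arrays compared (0.055) and with the unequal-variance test (0.175). Over non-transgenic lung the difference was 0.48 (-0.03 to 0.99, limma adjusted p = 0.136), and 0.74 without tumor 2 (limma adjusted p = 0.00219). Tumor 2 was the lowest tumor, so its removal raises this difference by construction, and that last p-value is a description only.

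Ciita, the coactivator, lay close to the median of the table in lung. On 1421210_AT its log2 signals were 5.18, 4.60, 4.60 and 4.69 in non-transgenic lung, 4.50, 4.84, 4.62 and 5.02 in adjacent normal lung, and 6.34, 4.35, 6.22 and 5.88 in tumors. On 1421211_A_AT they were 5.16, 4.41, 4.39 and 4.71, then 4.34, 4.54, 4.41 and 4.67, and then 5.67, 4.13, 5.75 and 5.47. On both, tumors 1, 3 and 4 were above all 8 lungs and tumor 2 was below all 8, so the tumors held both the highest and the lowest signals of this gene. The differences between tumor and adjacent normal lung were 0.95 (95% interval 0.16 to 1.74, limma adjusted p = 0.068) and 0.76 (0.08 to 1.45, limma adjusted p = 0.089), and neither passed the test. Without tumor 2 they were 1.40 and 1.14 (limma adjusted p = 8.74e-05 and 0.000381), the smallest of the 21 alternatives that tested Ciita, over which the largest were 0.280 and 0.290. Since tumor 2 was the lowest tumor on both, its removal raises these differences by construction, and these p-values are descriptions only.

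Counted together, 3 of the 9 probe sets rose in tumors over adjacent normal lung and none fell, where 13.2% of the 23538 probe sets tested rose (3102 rose and 3663 fell). The other 6 also had positive differences, and 8 of the 9 had an unadjusted limma p under 0.05, as did 41.3% of all probe sets tested, in either direction. The median difference of the 9 was 0.89 on the log2 scale, against 0.07 over all probe sets tested. Without adjacent normal lung 3 it was 0.64, against 0.07 over all. With each array centred on its median, 4834 rose (20.5%) and 3080 fell, 4 of the 9 rose, and the median difference over all probe sets moved from 0.07 to 0.18 and that of the 9 from 0.89 to 1.01. Against non-transgenic lung 1 of 9 rose, H2-Eb1, where 15.6% of all probe sets rose, and the median difference was 0.38 against 0.07. Without tumor 2 that median of the 9 was 0.69, against 0.08 over all. These comparisons share the tumor arrays. In the moderated F-test over the 3 groups H2-Eb1 and H2-DMa passed (limma adjusted p = 0.035 and 0.042), 2 of 9, where 28.6% of all probe sets passed. With the replicate number as a block H2-Eb1 alone passed, and H2-DMa had a limma adjusted p of 0.052. In no class II probe set were all 4 tumors above all 4 adjacent normal lungs, which held for 10.4% of all probe sets tested.

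Tumor 2 decided most of these counts. Without it, 8 of the 9 probe sets rose over adjacent normal lung (all but Cd74), where 23% of all probe sets rose. Over non-transgenic lung 6 of 9 rose, where 24.3% of all did, and those not called were 1435290_X_AT, 1450648_S_AT and Cd74. Without tumor 1 or without tumor 3, none of the 9 was called in tumors against adjacent normal lung, where 8.34% and 6.95% of all probe sets rose. Without tumor 4 or without adjacent normal lung 1, H2-DMa alone was called, 1 of 9, where 7.24% and 7.6% of all rose. Without adjacent normal lung 3, H2-Eb1 and H2-DMa were called, 2 of 9, where 12.1% of all probe sets rose. With both tumor 2 and adjacent normal lung 3 left out, 9 of 9 rose over adjacent normal lung, where 24.7% of all did, and 8 of 9 rose over non-transgenic lung (all but 1435290_X_AT), where 27.7% of all did. Tumor 2 was left out after its values had been seen, and since it is the lowest tumor in all 9 probe sets, its removal raises each tumor mean by construction.

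**Figure D2:**
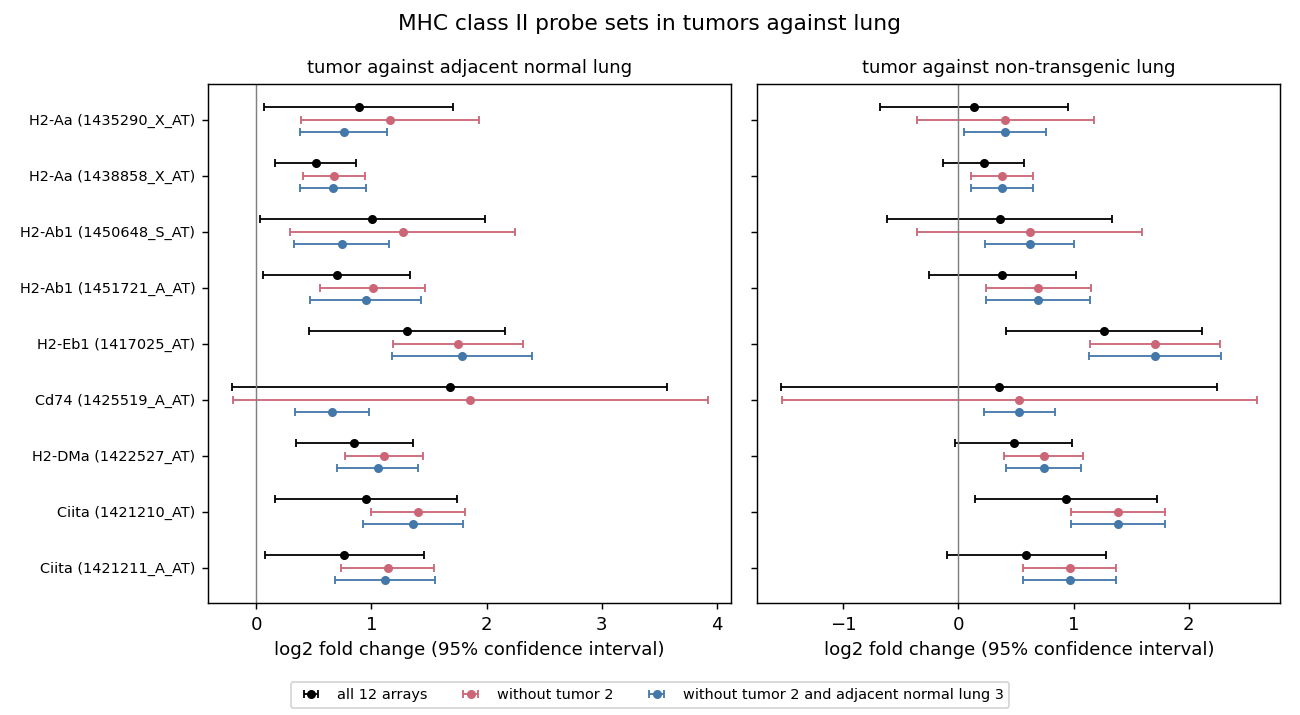
Log2 fold change of the 9 class II probe sets (points) with 95% confidence intervals (bars), for tumor against adjacent normal lung (left) and against non-transgenic lung (right), with all 12 arrays, without tumor 2, and without tumor 2 and adjacent normal lung 3. All points lie above 0, and the interval of Cd74 narrows from -0.21 to 3.57 with all arrays to 0.33 to 0.98 without both arrays in the left panel.

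The split among the tumors was measured in each gene. The difference of tumor 2 from the mean of tumors 1, 3 and 4 ranged from -1.80 in Ciita 1421210_AT to -0.64 in H2-Aa 1438858_X_AT, with a median of -1.09 on the log2 scale. Set against the mean of the 7 lungs other than adjacent normal lung 3, tumor 2 differed by -0.53 to -0.02, while the mean of tumors 1, 3 and 4 differed by 0.50 to 1.74. In 6 of the 9 probe sets tumors 1, 3 and 4 were all above all 8 lungs, which held for 21.7% of all probe sets tested; the exceptions were 1435290_X_AT and both probe sets of H2-Ab1, through non-transgenic lung 1.

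Non-transgenic lung 1 was the highest of the 4 non-transgenic lungs in 9 of 9 probe sets, by 0.16 to 0.82 on the log2 scale over the mean of the other 3, and in 25.3% of all probe sets tested. The Gapdh controls of the array, which read the transcript of a glycolysis enzyme, also set tumors 1, 3 and 4 above tumor 2 and non-transgenic lung 1 above the other non-transgenic lungs, but tumor 2 was above every lung in them. Their 3 probe sets gave 12.18 to 12.48 in tumors 1, 3 and 4, 11.45 to 11.78 in tumor 2, 11.21 to 11.39 in non-transgenic lung 1, 10.67 to 11.03 in non-transgenic lungs 2 to 4 and 10.57 to 11.27 in adjacent normal lungs 1, 2 and 4. The beta-actin controls did not share this order. Tumor 2 was the highest tumor on those for the 3' end (13.25) and the middle (12.53) of the transcript. On the 5' control it (12.35) was below tumor 1 (12.57) and above tumors 3 and 4. On the 3' control, non-transgenic lung 1 was the lowest non-transgenic lung (13.37). On the 5' and middle controls it (12.76 and 12.815) was below non-transgenic lung 3 alone (12.80 and 12.85). The part of cell makeup, RNA quality or signal scale in the class II differences was not tested.

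**Figure D3:**
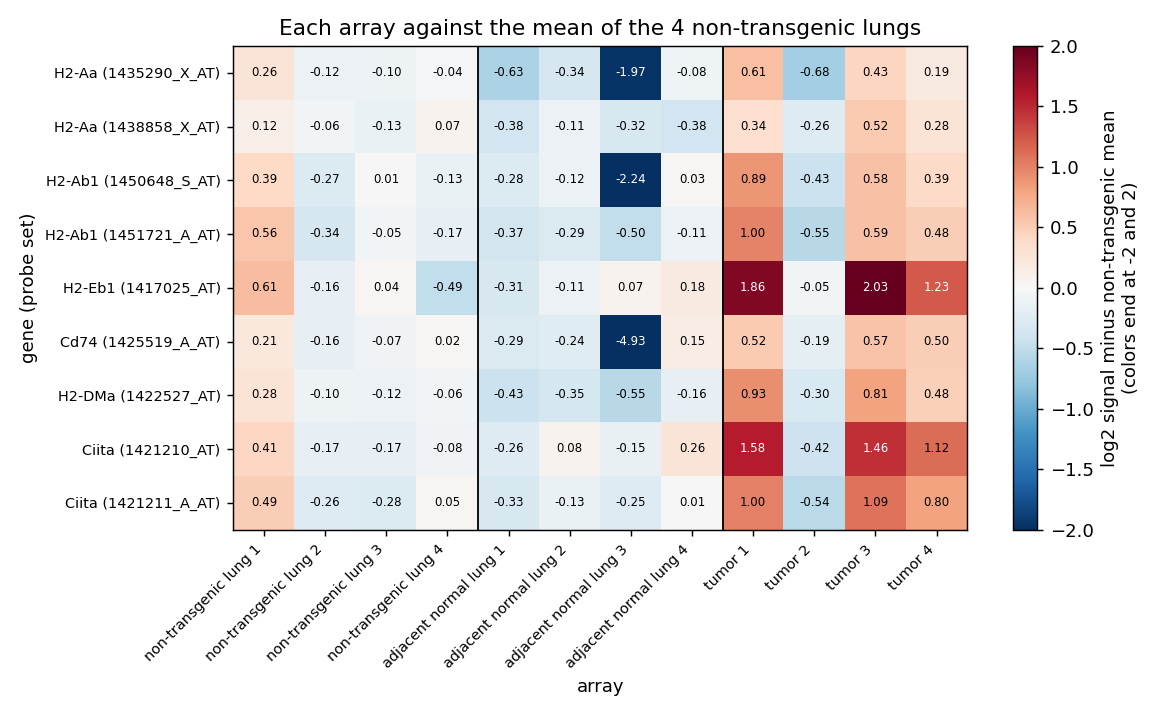
Log2 signal of each class II probe set (rows) on each array (columns) minus the mean of the 4 non-transgenic lungs, with colors that end at -2 and 2 and the value written in each cell. Tumors 1, 3 and 4 are positive in all 9 rows and tumor 2 is negative in all 9, with the largest positive value, 2.03, in H2-Eb1 of tumor 3 and the lowest value, -4.93, in Cd74 of adjacent normal lung 3.

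No difference between adjacent normal lung and non-transgenic lung passed the test in the class II probe sets. None of the 9 was called, and limma called none of the 23538 probe sets tested either (0%), with 835 of all and 0 of the 9 at an unadjusted p under 0.05. The unequal-variance test called none either. The 9 differences were all negative, from -1.33 in Cd74 to -0.02 in Ciita 1421210_AT, with a median of -0.32 on the log2 scale. Without adjacent normal lung 3 they ranged from -0.35 to 0.02 with a median of -0.15, and that of Cd74 was -0.13 (95% interval -0.57 to 0.32).

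The low values of adjacent normal lung 3 were not shared by all class II probe sets. Its difference from the mean of adjacent normal lungs 1, 2 and 4 was -4.80 on the log2 scale in Cd74, -2.11 in H2-Ab1 1450648_S_AT and -1.62 in H2-Aa 1435290_X_AT. In the other 6 probe sets it differed from that mean by -0.24 to 0.15. Only 13 of the 23538 probe sets tested were as far below as Cd74, Cd74 included. A gap of more than 1 log2 unit to the lowest of the other 11 arrays was found in those 3 class II probe sets, and in 3.54% of all probe sets tested (833). Among the 842 probe sets whose mean over the other arrays was above 10, as in those 3, it was found in 57, or 6.77%.

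Probe sets of the same gene disagreed on that array. The log2 signal of the first H2-Ab1 probe set minus that of the second was 0.27 to 0.61 on the 11 other arrays and -1.30 on adjacent normal lung 3. For H2-Aa the difference was 2.08 to 2.79 on the 11 other arrays and 0.85 on adjacent normal lung 3. For Ciita it was -0.03 to 0.67 on the others and 0.20 on that array, within their range. The signal of 1 probe set for H2-Aa and for H2-Ab1 was thus low on this array while the other was near its group, and Cd74, with 1 probe set here, has no such check.

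**Figure D4:**
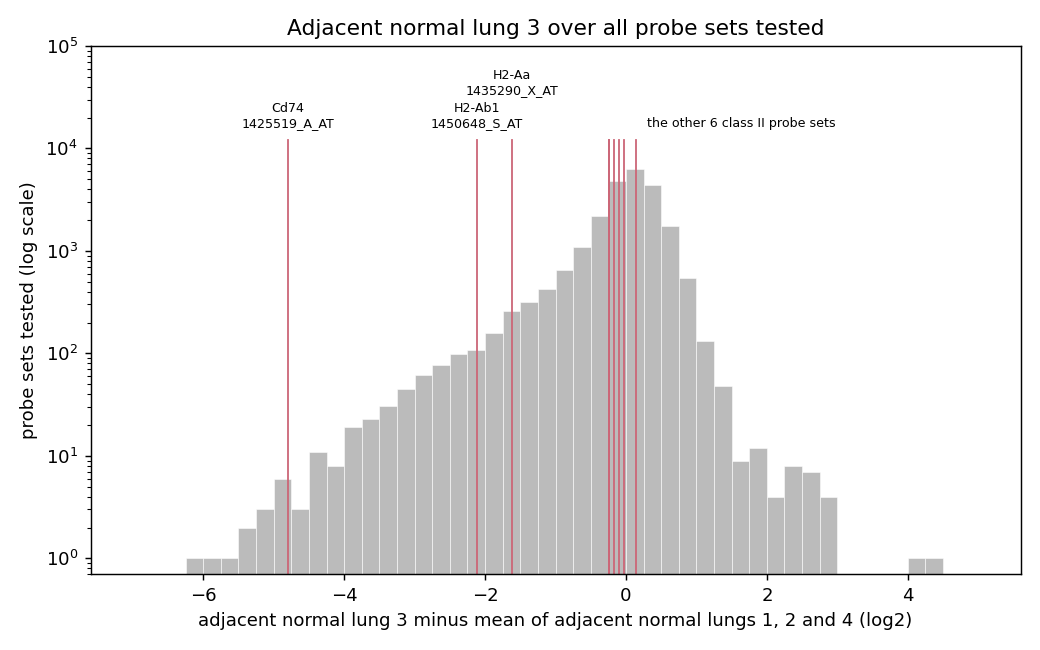
Number of probe sets tested (vertical axis, log scale) by the difference between adjacent normal lung 3 and the mean of adjacent normal lungs 1, 2 and 4 (horizontal axis, log2), with the 9 class II probe sets as vertical lines. Cd74 at -4.80, H2-Ab1 1450648_S_AT at -2.11 and H2-Aa 1435290_X_AT at -1.62 lie in the low tail, and the other 6 lie near 0.

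Signals of the class II genes were alike in pattern over the arrays. Over the 33 pairs of probe sets of different genes, the median Pearson correlation of the log2 signals was 0.82 over 12 arrays, with a range of 0.31 to 0.98, and 0.92 over 11 arrays without adjacent normal lung 3, with a range of 0.81 to 0.96. Deviations from the group means gave a median of 0.93 over the same 11 arrays and 0.80 (0.16 to 0.97) over 10 arrays, without tumor 2 as well. These correlations are descriptions: the arrays share their normalization, and the deviations within groups are set in part by tumor 2, as the values over 10 arrays show.

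Without adjacent normal lung 3, an array set aside after its values had been seen, Ciita was close in pattern to the other class II genes. Its probe set 1421210_AT correlated by 0.97 with the mean of the 5 other genes over 11 arrays, and 4 of 23531 probe sets, itself included, reached that value. The other Ciita probe set, 1421211_A_AT, correlated by 0.97 too and ranked 2. H2-DMa correlated by 0.98 and ranked 1 of 23530, and H2-Aa 1438858_X_AT was the least alike over these 11 arrays, at 0.87 and rank 868. As deviations from the group means over those arrays, Ciita 1421210_AT and H2-DMa each ranked 1, at 0.99 for both. Over 10 arrays, without tumor 2 as well, these deviations gave rank 1 for Ciita 1421210_AT (0.97) and 8 for H2-DMa (0.95). The other Ciita probe set, 1421211_A_AT, then ranked 134 (0.87), and H2-Aa 1438858_X_AT ranked 3590 (0.40). With adjacent normal lung 3 included, the least alike were Cd74, at 0.63 and rank 4380, and H2-Eb1, at 0.75 and rank 1437. The signals of Ciita then ranked 890 (1421210_AT) and 778 (1421211_A_AT), and H2-DMa ranked 22.

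Some probe sets outside the class II list had a similar pattern. Over all 12 arrays, 152 of the 23529 other probe sets correlated above 0.9 with the mean of the class II chains and Cd74, led by 1416685_S_AT at 0.97. Without adjacent normal lung 3, 212 did. The first count rests on a mean that includes the low values of that array in Cd74, 1450648_S_AT and 1435290_X_AT. The genes of these probe sets were not analysed here.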

How the data were processed

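For each array and probe set the authors deposited a log2 value, corrected for background and normalized between arrays. For this step the paper cites Robust Multichip Average, while GCRMA is listed, with no version, in the processing notes of the submitters. The 45101 probe sets had values from 1.50 to 14.51 and no detection calls. Groups and numbers came from the labels, and 64 control probe sets were left out. A probe set was tested if it exceeded 4.18, the median of the table, on at least 4 arrays (23538 were). The fit used limma 3.58.1 (lmFit, eBayes; R 4.3.3) with all 3 groups, and a Benjamini-Hochberg adjusted p under 0.05 over all probe sets tested was a call. The script was tested on simulated data. All 9 class II probe sets were named. They and the gene lists were chosen with earlier results of these data known, and the joint removal of tumor 2 and adjacent normal lung 3 was chosen after seeing the data.

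Neighbouring tissue codes in the labels imply that tumor and adjacent normal lung of 1 number came from 1 mouse, whereas the paper calls all samples independent. Between tumor and lung of the same number, deviations from group means had correlations of -0.03, 0.10, 0.07 and 0.11, and 1 of 4 tumors correlated best with its own number, so the block was an alternative. Other alternatives were the filter, quantile normalization and median centring, each array left out, a robust trended fit, the mouse as a random block, only the arrays compared, and the tests of the paper's methods. Probe sets were not paired with genes in the tables used, so other pathway genes, cell type markers and olfactory receptor background were not analysed here. Promoters came from RefSeq (GRCm38.p6). The number of arrays limits the precision.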

Additional observations from a re-analysis of the deposited data

Results flagged for a closer look

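In the 27 sets of 4 arrays (9 class II probe sets in 3 groups), 5 held an array far from the other 3 by Dixon's test of the gap to the nearest array over the whole range. Chance alone marks about 5% of such sets, and the probe sets share arrays. Adjacent normal lung 3 stood out in Cd74 (1425519_A_AT), at a log2 signal of 7.12 against 11.76 to 12.20 in the others of its group, and in H2-Ab1 (1450648_S_AT), at 8.67 against 10.63 to 10.93. Tumor 2 stood out in Cd74, at 11.86 against 12.55 to 12.62. Non-transgenic lung 1 stood out in H2-DMa (1422527_AT), at 9.06 against 8.67 to 8.73, and in Ciita (1421210_AT), at 5.18 against 4.60 to 4.69.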

How the results depend on the processing

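Against adjacent normal lung, 3 of the 9 class II probe sets were called higher in tumors. With 1 array left out the count ranged from 0 to 8 (6.95% to 23% of all probe sets rose), and it was 9 without tumor 2 and adjacent normal lung 3 (24.7%). It was 0 with only the 8 arrays compared, where 6.6% of all probe sets rose, and 0 with the unequal-variance test, where 0.595% did. Against non-transgenic lung the count was 1, with a range of 0 to 6 over single arrays left out (9.31% to 24.3% of all rose) and 8 without both arrays (27.7%). It was 0 with only the 8 arrays compared and with the unequal-variance test, where 11.7% and 2.06% of all rose. In the F-test it was 2 (28.6% of all), with a range of 0 to 7 over single arrays left out (17.6% to 44.2% of all), 9 without both arrays (48.9%), 1 without a filter (16%) and 1 with quantile normalization again (28.7%). The methods' analysis of variance gave 3 at its own threshold with no adjustment (39.7% of all) and 0 after adjustment (24.4%). With the replicate number as a block over all 3 groups, the counts were 2 (11.5% of all rose), 1 (13.8%) and, in the F-test, 1 (25.2% called). With the mouse as a random block they were 3 (14.3% of all rose), 1 (15.6%) and, in the F-test, 2 (29.9% called). For adjacent normal against non-transgenic lung the count was 0 under each alternative run. An unadjusted limma p under 0.05 was found in 0 to 3 of the class II probe sets and in 2.39% to 6.69% of all. The 3 were found without tumor 2, where 6.22% of all had such a p. Signs turned in 7 of 588 single values, none of them called. In tumor against non-transgenic lung, 1435290_X_AT was -0.023 without tumor 1 (range over single arrays left out -0.023 to 0.41). In adjacent normal against non-transgenic lung, H2-Eb1 was 0.16 without non-transgenic lung 1 and 0.05 without adjacent normal lung 1 (range -0.21 to 0.16), and Ciita 1421210_AT was 0.12 and 0.06 without the same arrays and 0.024 without adjacent normal lung 3, alone or with tumor 2 (range over single arrays -0.11 to 0.12). The stricter filter left out both Ciita probe sets. The causes were not tested. Alternatives for the pathway gene lists were not run. With 4 arrays per group and no detection calls, low signals such as those of Ciita have no measured background.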
